A study of Mus musculus with 2 samples.

Results

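The MHC class II genes described here are H2-Aa, H2-Ab1, H2-Eb1, Cd74, H2-DMa, H2-DMb1, H2-Oa, H2-Ob and Ciita. They were taken by gene symbol, so no measured value chose them, and all 9 were found among the 32285 genes of the count tables. They were followed through the cell classes of optic nerves from Nf1-OPG mice, the optic glioma model of neurofibromatosis type 1, in 2 droplet single-cell libraries named C-ON and FMC_new. Per the study's methods, these mice carry Nf1 flox/mut and GFAP-Cre on a C57BL/6 background, so both libraries share the mutant Nf1 allele in every cell and the loss of the floxed allele only where GFAP-Cre was active. Per the labels, the nerves came from mice of 12 weeks and those of 10 mice were pooled for a suspension, which leaves no spread between animals to measure. In the labels C-ON is also called a control and FMC_new is not, but both carry the Nf1-OPG genotype, so they were treated as 2 libraries of 1 condition and no test between conditions was possible.

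MHC class II molecules present peptides from endosomes to CD4 T cells. H2-Aa and H2-Ab1 encode the α and β chains of I-A and H2-Eb1 the β chain of I-E, whose α chain gene H2-Ea is silent in C57BL/6 mice and was not used here. Cd74 is the invariant chain that guides newly made molecules to the endosome and blocks their groove until it is cut away. H2-DMa and H2-DMb1 form H2-DM, which swaps the last piece of Cd74 for a peptide, and H2-Oa and H2-Ob form H2-O, an inhibitor of H2-DM known from B cells and some dendritic cells. Ciita is the coactivator that switches on these genes, in dendritic cells and B cells constitutively and in most other cells after interferon-gamma. In a healthy brain and optic nerve, microglia hold little class II, and oligodendrocytes and their precursors are known to make it under interferon-gamma.

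In the mouse genome (GRCm38, GENCODE annotation), 7 of the 9 genes lie on chromosome 17 between positions 34092340 and 34341412, a stretch of 249 kb that also holds H2-Eb2 and H2-DMb2. Ciita lies on chromosome 16 (10480059 to 10528418). All 9 genes are protein-coding, and all but H2-Aa are on the plus strand. H2-DMb1 (34153072 to 34160230) has the closely similar neighbour H2-DMb2 (34143307 to 34151555), so reads common to both may have been lost or split between them. H2-DMa overlaps 4 annotated genes, of which Brd2 is on the other strand and CR974462.3 on its own strand. H2-Oa, H2-Eb1 and Ciita each overlap 1 gene on the other strand.

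Class II promoters are known for an X box, bound by the RFX complex, followed by a Y box, bound by NF-Y, to which Ciita docks. Promoters were read from a RefSeq table of GRCm38.p6 (250 bases before to 50 after the start), which held 6 of the 9 members and not H2-Ab1, Cd74 or Ciita. The letters GCAAC, the core of the X box, followed 15 to 45 bases downstream by GATTGG, the inverted CCAAT of the Y box, were searched on both strands. The pair stood on the strand of the gene in H2-Aa, H2-Eb1, H2-Oa and H2-Ob, 4 of the 7 member promoters in the table (H2-DMa has more than 1), and in 0.265% of all 32851 promoters. On either strand, the pair was in 0.508%, GATTGG alone in 16.1% and GCAAC alone in 35.2% of all promoters. The windows around these letters are shown 5′ to 3′ on the strand of the gene, because they show an α chain, a β chain and both chains of H2-O sharing the arrangement, with GCAAC and GATTGG in capitals.
H2-Aa, chr17:34287847-34287932, minus strand: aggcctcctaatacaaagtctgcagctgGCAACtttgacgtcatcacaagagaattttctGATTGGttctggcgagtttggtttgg
H2-Eb1, chr17:34305747-34305832, plus strand: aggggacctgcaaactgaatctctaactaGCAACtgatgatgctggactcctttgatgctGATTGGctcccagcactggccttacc
H2-Oa, chr17:34092275-34092360, plus strand: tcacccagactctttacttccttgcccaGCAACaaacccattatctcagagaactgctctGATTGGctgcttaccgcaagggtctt
H2-Ob, chr17:34238787-34238872, plus strand: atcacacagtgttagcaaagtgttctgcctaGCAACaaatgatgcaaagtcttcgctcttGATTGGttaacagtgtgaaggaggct
H2-DMb1, chr17:34153069-34153154, plus strand: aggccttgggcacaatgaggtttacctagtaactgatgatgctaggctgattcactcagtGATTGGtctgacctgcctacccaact
Between GCAAC and GATTGG there were 27 bases in H2-Aa and H2-Oa, 26 in H2-Eb1 and 24 in H2-Ob. H2-DMb1 held GATTGG without GCAAC in its promoter, and 1 of the 2 promoters of H2-DMa held GATTGG while the other held neither. A match is a description of these letters and not a site of binding.

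C-ON held 85101211 unique molecular identifiers (UMIs, each marking 1 captured RNA molecule) in 10845 barcodes and FMC_new 129113325 in 21341 barcodes. After filtering, 8834 and 16818 cells were kept, with medians of 6810.5 and 4676 UMIs. The libraries shared 296 barcode sequences, 188 of them among kept cells. Clustering without the class II genes gave 37 clusters, of which 28 were named in 16 classes by markers. The classes followed here showed 9 of 9 markers for microglia-like, 8 of 10 for macrophage-like, 8 of 8 for B cell-like and for tumor-like (glioma of the oligodendrocyte precursor type) cells, and 6 to 8 of 11 in the 3 dendritic cell-like clusters. Stromal-like cells showed 4 of 8 markers beside 2 of microglia. Clusters with markers of glia in which Ptprc, the leukocyte surface protein CD45, was found in at least 20% of cells were set apart as mixed with leukocytes, with 1.40% of cells in C-ON and 7.19% in FMC_new. Unnamed clusters held 1.86% and 10.2%. Free RNA was seen in FMC_new, where oligodendrocyte-like cells without class II and leukocyte genes held growth hormone (Gh) UMIs at 17900 per 1000000, and 0 in C-ON. This pooled value was uneven between clusters. Over all cells of FMC_new, Gh was at 203000 per 1000000 in the oligodendrocyte-like cluster led by Prl and Gh. In the other oligodendrocyte-like clusters it was at 1640 to 2370. Levels are UMIs of a gene per 1000000 UMIs of a class (CPM), and they compare 1 gene between classes, since levels of different genes also depend on capture. T cell-like cells, as mouse T cells do not make class II, stand for the background of H2-Aa, H2-Ab1, H2-Eb1 and Cd74 in each library. For H2-DMa and H2-Oa their level is a comparison only, since both were higher beside Cd74 than in dendritic cell-like cells. H2-DMa counted 11.4 and 9.46 per 100 Cd74 UMIs against 2.35 and 2.51. H2-Oa had 51 and 301 UMIs beside 775 and 5803 of Cd74, against 963 and 4485 beside 93644 and 366134.

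The chains of the presenting molecule were highest in dendritic cell-like and macrophage-like cells and stepped down through microglia-like and B cell-like cells to the background. H2-Aa was at 12470 CPM in dendritic cell-like cells of C-ON (exact Poisson 95% interval 12300 to 12600) and at 13414 in those of FMC_new (13300 to 13500). In macrophage-like cells it was at 8543 and 13539 CPM, in microglia-like cells at 4898 and 5425, and in B cell-like cells at 3204 and 4493, for C-ON and FMC_new in turn. T cell-like cells stood at 52.6 and 161 CPM. Dendritic cell-like and macrophage-like cells did not keep 1 order, since the former led in C-ON and the latter slightly in FMC_new. The steps from macrophage-like to microglia-like, to B cell-like and to plasma cell-like cells were larger than the difference between libraries, in that the values of both libraries of 1 class lay above both of the next.

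H2-Ab1 and H2-Eb1 stepped down in the same order from macrophage-like cells, while dendritic cell-like cells led in both libraries for H2-Ab1 and in C-ON for H2-Eb1. H2-Ab1 was at 10469 and 11086 CPM in dendritic cell-like, 7349 and 11041 in macrophage-like, 4551 and 4377 in microglia-like and 2063 and 2636 in B cell-like cells, against 46.7 and 107 in T cell-like cells. H2-Eb1 was at 10367 and 11837 CPM in dendritic cell-like, 7272 and 12425 in macrophage-like, 4507 and 4835 in microglia-like and 2938 and 3831 in B cell-like cells, against 56.9 and 139. Over 65 profiles, each a cluster of at least 20 cells in 1 library, the correlation of H2-Eb1 with the mean of the other chain genes and Cd74 was r = 0.996, a description over clusters that share libraries and depth.

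Cd74, the invariant chain (chromosome 18, 60803848 to 60812652, over a microRNA gene on the same strand), kept this order and reached further down. It was at 34584 and 35127 CPM in dendritic cell-like cells, 26183 and 36648 in macrophage-like cells, 20633 and 22683 in microglia-like cells and 12605 and 14789 in B cell-like cells. Plasma cells, which are known to shut down the class II program as they arise from B cells, still held Cd74 at 3935 and 4515 CPM while H2-Aa was at 288 and 551 in the plasma cell-like class. Per 100 Cd74 UMIs, H2-Aa counted 36.1 and 38.2 in dendritic cell-like cells and 7.32 and 12.2 in plasma cell-like cells. T cell-like cells held Cd74 at 207 and 512 CPM.

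**Figure D1:**
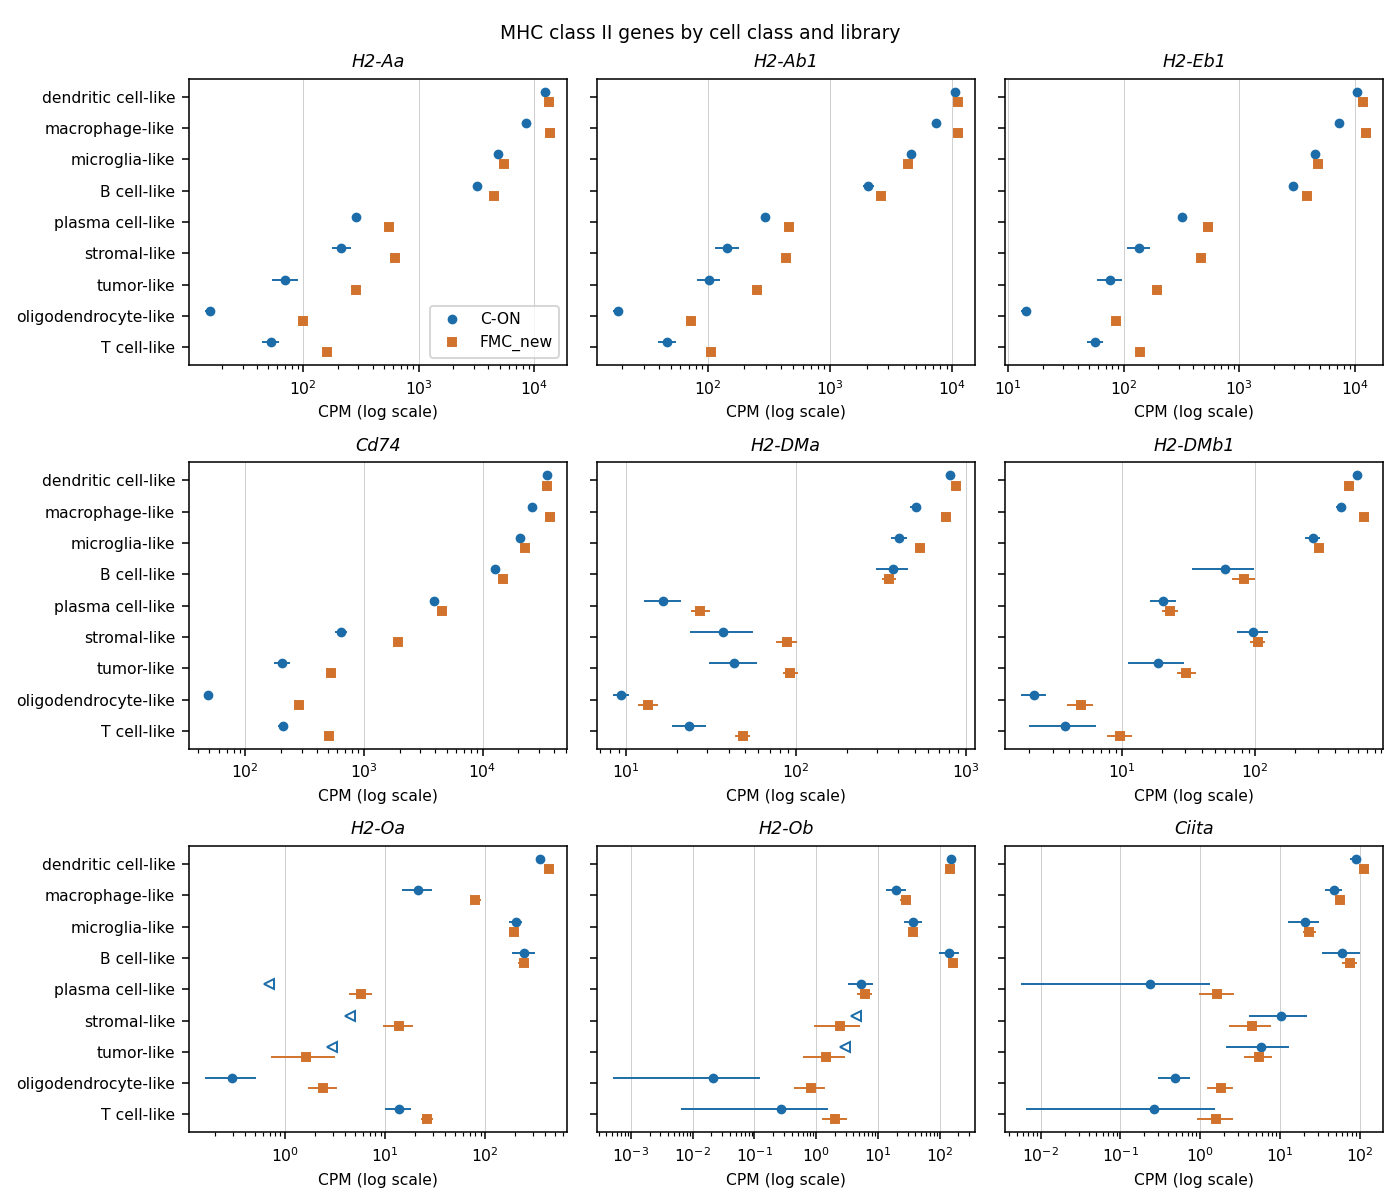
Levels of the 9 MHC class II genes in 9 cell classes (rows), in CPM on log axes, for C-ON (circles) and FMC_new (squares), with exact Poisson 95% intervals that cover counting error only. Open triangles mark the limit of 3 counts where no UMI was found. The presenting chains and Cd74 step down from macrophage-like to microglia-like to B cell-like cells in both libraries, whereas H2-Oa is low in macrophage-like cells (21.3 and 80.0 CPM).

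Shares of cells with a UMI, after each cell was thinned to 1000 UMIs, showed how widely H2-Aa was spread within a class. In dendritic cell-like cells, 97.7% and 97.6% of cells held a H2-Aa UMI, and in B cell-like cells 91.7% and 94.0%. In macrophage-like cells the share was 79.7% in C-ON and 92.5% in FMC_new, and in microglia-like cells it was 43.0% and 74.4%. T cell-like cells held one in 2.01% and 10.6% of cells, with median depths before thinning of 3208 and 3128 UMIs against 7633 and 7131 in dendritic cell-like cells. Of 12 other classes with at least 20 cells in each library, 6 were above T cell-like cells in both libraries by intervals that did not overlap. They were the dendritic cell-like, macrophage-like, microglia-like, B cell-like, plasma cell-like and stromal-like classes.

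Summed per cell, H2-Aa, H2-Ab1, H2-Eb1 and Cd74, called the core genes from here on, made up a median of 6.91% of the UMIs of a dendritic cell-like cell in C-ON and 6.84% in FMC_new. In macrophage-like cells the medians were 5.80% and 7.90%, and in B cell-like cells 2.31% and 2.75%. Microglia-like cells differed from these in spread, with medians of 0.0954% and 3.28% and upper quartiles of 5.06% and 5.25%. In that class 59.7% of cells in C-ON and 27.3% in FMC_new were below 1%, against 5.28% and 4.72% of dendritic cell-like cells. The microglia-like class thus held cells with little and cells with much class II in both libraries, in different proportions.

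**Figure D2:**
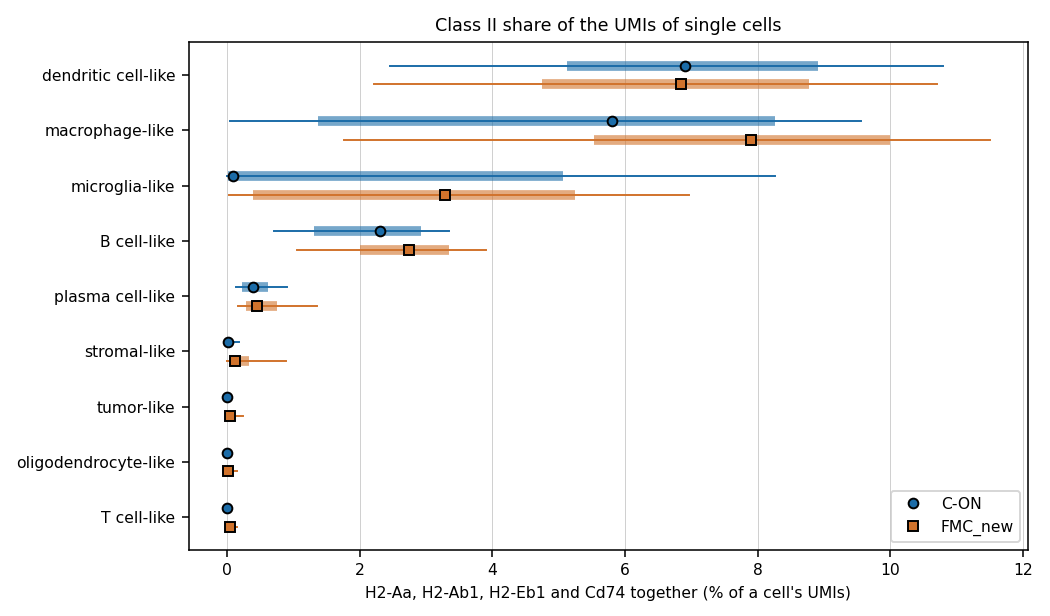
Share of a single cell's UMIs that came from H2-Aa, H2-Ab1, H2-Eb1 and Cd74 together, in percent, by class and library. Points are medians over cells, thick bars run from the lower to the upper quartile and thin lines from the 10th to the 90th percentile. Microglia-like cells span from near 0 to the range of macrophage-like cells, with a median of 0.0954% in C-ON and 3.28% in FMC_new.

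The low and high microglia-like cells were also parted in part by clustering, although the class II genes were not used for it. A sub-cluster led by Ecscr, Sparc and P2ry12, a purinergic receptor of resting microglia, held 58 cells of C-ON and 216 of FMC_new. Its H2-Aa was at 12.8 CPM in C-ON, below the T cell-like background of 52.6, and at 835 in FMC_new, and its Cd74 was at 320 and 3950. All of its cells in C-ON and 84.7% in FMC_new were below 1% class II. The largest sub-cluster, led by Siglecf, Cxcl13 and Apoc1, held 78 and 494 cells, of which 32.1% and 8.5% were below 1% class II. Its H2-Aa was at 7900 and 6880 CPM and its Cd74 at 33000 and 29100.
In the first of these, P2ry12 was at 1440 and 1360 CPM and Tmem119 at 998 and 1020. In the second, P2ry12 was at 526 and 521 and Tmem119 at 644 and 587. Lag3, a receptor that binds class II and is also a gene of microglia, was at 233 and 211 CPM in the first and at 727 and 500 in the second, and Apoe, a lipid carrier of reactive microglia, at 1230 and 3760 and at 7330 and 9000. The largest sub-cluster was thus lower in P2ry12 and Tmem119 in both libraries. A sub-cluster of 14 and 78 cells led by Atp8a2 and Prkd1 lay between, with H2-Aa at 2220 and 4250 CPM and P2ry12 at 1680 and 986. A small sub-cluster led by interferon-induced genes such as Ifit3, Cxcl10 and Rsad2 (8 and 42 cells) held H2-Aa at 7320 and 6920 CPM. A further 15 and 258 cells of the class lay in an unnamed sub-cluster with T cell genes, and without the unnamed sub-clusters H2-Aa of the class was at 5122 and 5517 CPM.

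Microglia-like cells were then divided at 1%, a limit chosen after these values had been seen, and 3 cells of C-ON and 105 of FMC_new lay between 0.5% and 2%. In C-ON, 71 cells were at or above the limit and 105 below, and in FMC_new 811 and 305. Of the cells above the limit, 62 of 71 and 572 of 811 lay in sub-clusters named microglia-like, and of those below 96 of 105 and 258 of 305. The others lay in unnamed sub-clusters, the larger of which was led by T cell genes such as Cd8a and Cd8b1, and they are part of the values that follow. Ciita had 24 UMIs in the 71 cells of C-ON (38.1 CPM) and 0 in the 105 cells below, where the limit of 3 counts is 5.48 CPM. The value of the former lies above that limit. In FMC_new it had 165 UMIs in the 811 cells above the limit and 2 (1.23 CPM) in the 305 below. A Ciita UMI was found in 20 of 71 and 131 of 811 cells above the limit, so most of these held none at this depth.
H2-Oa was at 346 CPM in C-ON and 233 in FMC_new above the limit, and at 40.2 and 62.3 below. H2-DMa was at 624 and 614 above and at 155 and 280 below, so that part of H2-DMa remained in cells with little class II. The interferon-induced GTPases Iigp1 (394 and 370 CPM against 23.7 and 60.4) and Gbp2 (332 and 203 against 20.1 and 59.8) were higher above the limit in both libraries. Irf1, an early target of interferon-gamma, was at 415 and 592 against 403 and 436 CPM. Ifit3, a further interferon-induced gene, differed in direction between the libraries, with 151 against 76.7 in C-ON and 69.0 against 133 in FMC_new. Genes of activated microglia went both ways. Lpl (9.53 and 38.8 against 254 and 131) and Spp1 (7.94 and 43.9 against 119 and 411) were lower above the limit. Cst7 (273 and 188 against 45.6 and 94.9), Itgax (84.2 and 89.2 against 23.7 and 30.8) and Axl (125 and 129 against 52.9 and 97.4) were higher. Between sub-clusters, Lpl was higher in the largest (233 and 80.4 CPM) than in the one led by Ecscr, Sparc and P2ry12 (9.59 and 31.1). Spp1 was likewise higher there, at 108 and 188 against 16 and 6.9. Cells above the limit were also deeper, with medians of 8486 and 6468 UMIs against 4551 and 4925, and the part of depth in these differences was not tested.

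**Figure D3:**
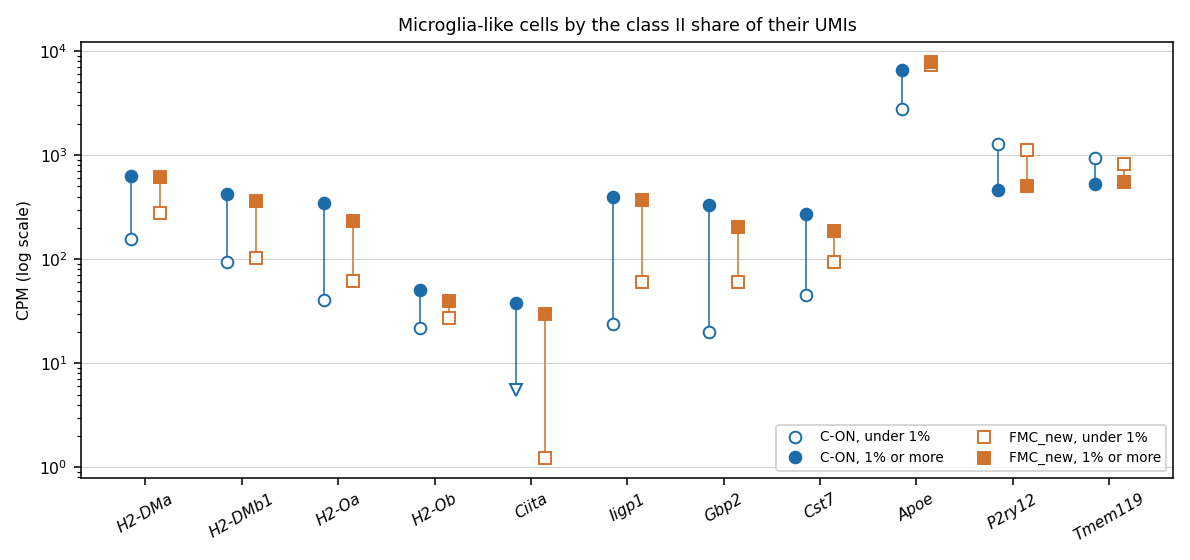
Levels of 11 genes, in CPM on a log axis, in microglia-like cells with at least 1% class II UMIs (filled) and below 1% (open), for C-ON (circles, 71 and 105 cells) and FMC_new (squares, 811 and 305 cells), unnamed sub-clusters included. The open triangle marks the limit of 3 counts for Ciita in C-ON, where no UMI was found. H2-Oa, Ciita, Iigp1 and Gbp2 are higher in the filled points of both libraries, P2ry12 and Tmem119 lower.

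Within the dendritic cell-like and macrophage-like classes, subtypes differed in level. Type 2 dendritic cell-like cells (Cd209a, Clec10a) held H2-Aa at 13940 and 14668 CPM and type 1 dendritic cell-like cells (Xcr1, Clec9a) at 12105 and 12839. Migratory dendritic cell-like cells (Ccr7, Ccl22), with 27 and 79 cells, were lower at 4912 and 6909. The peptide editor was also lower in these, with H2-DMa at 171 and 234 CPM and H2-DMb1 at 111 and 61.7, against 1029 and 990 and 730 and 625 in the type 1 cells. Mature dendritic cells are known to stop class II synthesis and to keep their molecules on the surface, which RNA does not show.
Among macrophage-like cells, those with C1q genes held H2-Aa at 10610 and 15342 CPM and monocyte-like cells at 11570 and 13205. Border macrophage-like cells (Lyve1, Cbr2, Folr2) held 4530 CPM in C-ON and 10412 in FMC_new, with 48.4% and 20.1% of cells below 1% class II. Border macrophage-like cells made up 122 of 362 macrophage-like cells in C-ON and 224 of 1003 in FMC_new, beside the lower level of the whole class in C-ON. Among the named subtypes of macrophage-like cells, Ciita was highest in the monocyte-like ones, at 85.6 and 82.0 CPM against 46.4 and 48.4 in those with C1q genes. An unnamed sub-cluster of the class, with 28 and 33 cells, held it at 78.0 and 141 CPM.

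The genes of H2-DM and H2-O did not share 1 order. H2-DMa was at 814 and 882 CPM in dendritic cell-like, 507 and 771 in macrophage-like, 406 and 538 in microglia-like and 371 and 354 in B cell-like cells. H2-DMb1 was at 585 and 514, 450 and 666, and 273 and 305 in the first 3 of these, but at 60.03 and 83.0 in B cell-like cells. Its neighbour H2-DMb2 was at 484 and 602 CPM in B cell-like cells, 553 and 646 in dendritic cell-like, 184 and 233 in macrophage-like and 149 and 183 in microglia-like cells. The β chain of H2-DM was thus counted mainly under H2-DMb2 in B cell-like cells and mainly under H2-DMb1 in macrophage-like and microglia-like cells, with the reserve that these near copies may share reads. T cell-like cells stood at 3.74 and 9.61 CPM for H2-DMb1 and at 2.40 and 6.88 for H2-DMb2.

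H2-Oa set macrophage-like cells apart from the other presenting cells. H2-Oa was at 356 and 430 CPM in dendritic cell-like, 244 and 243 in B cell-like and 204 and 194 in microglia-like cells, but at 21.3 and 80.0 in macrophage-like cells, near the 13.6 and 26.5 of T cell-like cells in C-ON. In border macrophage-like cells it had 0 UMIs in C-ON and 20.5 CPM in FMC_new. Microglia-like cells, whose H2-Aa was below that of macrophage-like cells in both libraries, thus held more of this inhibitor chain.
H2-Ob was at 151 and 145 CPM in dendritic cell-like and 143 and 163 in B cell-like cells, whose order turned between the libraries. It was at 37.4 and 37.0 in microglia-like and 19.7 and 28.3 in macrophage-like cells, against 0.267 and 2.03 in T cell-like cells. Relative to H2-Oa, H2-Ob was therefore lower in microglia-like than in B cell-like cells. Tumor-like cells held no UMI of either gene in C-ON, with a limit of 2.93 CPM, and 9 and 8 UMIs in FMC_new.

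Ciita, the coactivator, ordered the classes differently from its targets. It was at 89.0 (78.1 to 101) and 114 (107 to 120) CPM in dendritic cell-like cells, at 60.03 (34.3 to 97.5) and 75.7 (62.5 to 90.9) in B cell-like cells, at 47.5 and 56.8 in macrophage-like cells and at 20.4 and 23.5 in microglia-like cells. In B cell-like cells of C-ON this rests on 16 UMIs, and its interval covers the macrophage-like value. B cell-like cells, with less H2-Aa than macrophage-like cells, did not hold less Ciita.
T cell-like, plasma cell-like and oligodendrocyte-like cells stood at 0.232 to 1.80 CPM over both libraries. Tumor-like cells were above these, at 5.87 (6 UMIs, 2.15 to 12.8) and 5.43 (30 UMIs, 3.66 to 7.75), against 0.267 (0.00676 to 1.49) and 1.59 (0.940 to 2.51) in T cell-like cells. Stromal-like cells stood at 10.4 and 4.44 CPM from 7 and 13 UMIs. These are few molecules, yet the intervals of tumor-like and T cell-like cells did not overlap in either library.

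Tumor-like and oligodendrocyte-like cells were near the T cell-like background in total level. H2-Aa was at 70.4 and 286 CPM in tumor-like and at 15.6 and 99.8 in oligodendrocyte-like cells, against 52.6 and 161 in T cell-like cells. In thinned cells, the shares with a H2-Aa UMI were 3.89% (exact Clopper-Pearson 95% interval 1.58 to 7.85) and 16.0% (13.6 to 18.6) in tumor-like cells, and 2.01% (1.21 to 3.12) and 10.6% (9.58 to 11.8) in T cell-like cells. Oligodendrocyte-like cells, with 1.44% and 9.05%, were not above T cell-like cells, so this share over the whole class is not read as expression. Tumor-like cells were above it in FMC_new, and at this depth a difference was not detectable in C-ON. Stromal-like cells, with H2-Aa at 215 and 623 CPM, also held C1qa of macrophages and microglia at 37.1 and 324 CPM. With both libraries pooled, H2-Aa of tumor-like over T cell-like cells was 0.92 on the log2 scale, and 2.54 with the clusters mixed with leukocytes kept in their class. For stromal-like over T cell-like cells it was 2.03, and 1.34 without the cells of the highest doublet scores.

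The make-up of the class II UMIs differed between classes. H2-DMa counted 2.35 and 2.51 per 100 Cd74 UMIs in dendritic cell-like cells, 1.94 and 2.10 in macrophage-like and 1.97 and 2.37 in microglia-like cells. It counted 21.1 and 17.4 in tumor-like cells and 11.4 and 9.46 in T cell-like cells. Oligodendrocyte-like cells differed between libraries, with 19.1 in C-ON and 4.67 in FMC_new, and stromal-like cells held 5.77 and 4.52. Tumor-like and T cell-like cells thus both lay above the presenting cells in this ratio. H2-DMb1, which overlaps no annotated gene, counted 9.09 and 5.77 per 100 Cd74 UMIs in tumor-like, 15 and 5.42 in stromal-like, 1.81 and 1.88 in T cell-like and 1.69 and 1.46 in dendritic cell-like cells. The part of free RNA in these ratios was not tested.

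**Figure D4:**
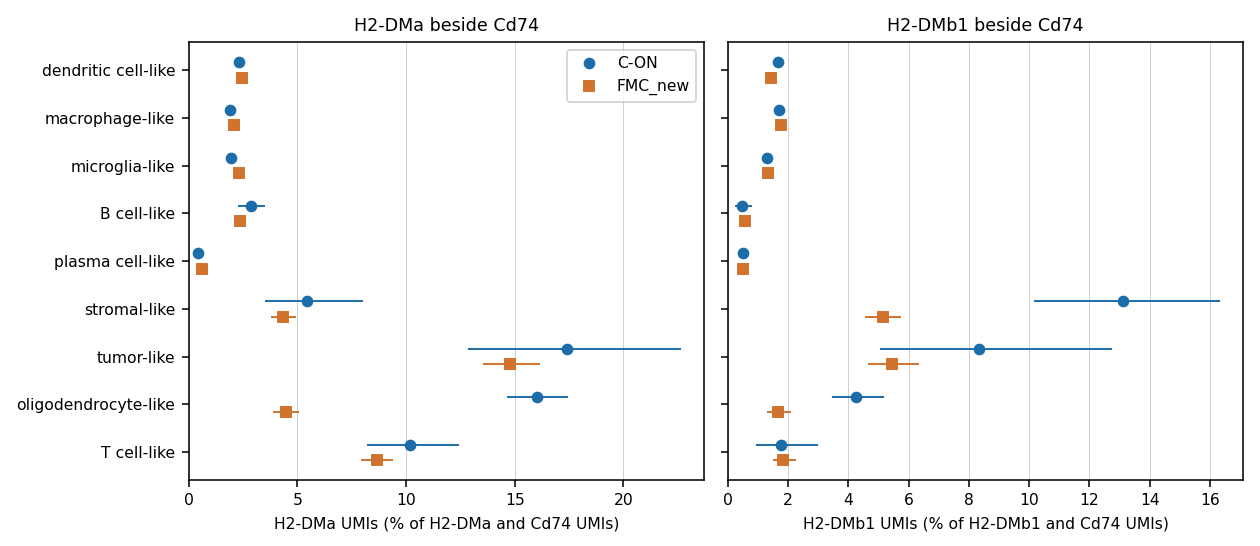
UMIs of H2-DMa (left) and H2-DMb1 (right) as a percent of their sum with Cd74 UMIs, by class, for C-ON (circles) and FMC_new (squares), with exact 95% binomial intervals that cover counting error only. Tumor-like cells lie above dendritic cell-like, macrophage-like, microglia-like and B cell-like cells in both panels and both libraries.

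Single tumor-like and oligodendrocyte-like cells carried all 4 core genes. This held for 7.14% (3.86 to 11.9) of tumor-like cells in C-ON and 16.0% (13.6 to 18.6) in FMC_new, for 0.906% (0.678 to 1.19) and 5.89% (4.99 to 6.89) of oligodendrocyte-like cells, and for 0.824% (0.356 to 1.62) and 3.37% (2.78 to 4.06) of T cell-like cells. Of these cells, 7.69% and 47.1% of the tumor-like and 44.2% and 82.8% of the oligodendrocyte-like ones also held a UMI of Ptprc, C1qa, Cx3cr1, Cd79a, Lyz2 or Tyrobp, which mark leukocytes. Without any of these markers there remained 12 of 182 tumor-like cells in C-ON (6.59%, 3.45 to 11.2) and 73 of 864 in FMC_new (8.45%, 6.68 to 10.5). Among oligodendrocyte-like cells, 29 of 5737 (0.505%) and 25 of 2462 (1.02%) remained. Among stromal-like cells, 7 of 105 (6.67%, 2.72 to 13.3) and 47 of 594 (7.91%, 5.87 to 10.4) remained, so this share is not particular to tumor-like cells. H2-DMa was at 156 and 151 CPM in these stromal-like cells. It was at 4.24 (1 UMI) and 16.5 in stromal-like cells with no core gene and no such marker. The stromal-like cells with all 4 core genes were lower in genes of stroma. Dcn was at 780 and 159 against 3290 and 2740 CPM, Lum at 0 and 0 against 322 and 248, and Col1a1 at 250 and 131 against 314 and 202. T cells carry Ptprc themselves, so they give no background for this cut, which was chosen after the values had been seen.

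The tumor-like cells with all 4 core genes and no leukocyte marker were set beside the 100 and 109 tumor-like cells with no core gene and no such marker. H2-DMa was at 215 CPM in C-ON and 225 in FMC_new in the former, found in 9 of 12 and 53 of 73 cells, and at 12.7 and 24 in the latter. Ciita had 3 UMIs in 12 cells and 6 in 73 cells, against 0 in 100 and 2 in 109 cells. The pair of H2-O genes was at 0 in the former in both libraries.
Iigp1 was at 340 and 529 CPM in tumor-like cells with class II and at 4.25 and 53.2 in those without, and Gbp2 at 71.5 and 125 against 0 and 1.72. Serpina3n, a serine protease inhibitor of reactive glia, was at 1060 and 1890 against 104 and 526. Iigp1, Gbp2 and Serpina3n were thus higher in both libraries in the tumor-like cells that held class II.
Pdgfra, a growth factor receptor that marks the tumor-like class, was at 563 and 711 CPM in cells with class II and at 1120 and 1020 in cells without. A Pdgfra UMI was found in 100% and 93.2% of the former and in 86.0% and 94.5% of the latter. Further genes of this class differed less. Cspg5 was at 2220 and 2590 against 2390 and 2740 CPM, and Ptprz1 at 1790 and 1830 against 2000 and 2290. Cells with class II were deeper, with medians of 9815.5 and 7291 UMIs against 4148.5 and 5346. Among the highest doublet scores of each library lay 41.7% of them in C-ON and 5.48% in FMC_new, beside 13.2% and 11.6% of the whole class. The part of depth and of doublets in these differences was not tested.

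In oligodendrocyte-like cells the same cut led to 1 cluster in C-ON but not in FMC_new. Of the 29 cells of C-ON with all 4 core genes and no leukocyte marker, 27 lay in the cluster led by C4b, Serpina3n and Iigp1, where they were 2.98% (1.97 to 4.31) of 906 cells. Of the 25 cells of FMC_new, 9 lay in that cluster (0.941%, 0.431 to 1.78), 8 in the cluster led by Prl and Gh (1.98%, 0.859 to 3.86), and 5 and 3 in 2 others. In C-ON this cluster held H2-Aa at 48.7 CPM, H2-DMa at 27.4 and Ciita at 2.10, while the other 4 oligodendrocyte-like clusters held H2-Aa at 5.42 to 19.3, H2-DMa at 4.78 to 7.44 and Ciita at 0 to 0.323. In FMC_new it held H2-Aa at 87.9 CPM, and the other 4 ranged from 34.7 to 496, the highest in the cluster led by the pituitary hormone genes Prl and Gh, where Gh was at 203000 CPM. The cluster led by C4b, Serpina3n and Iigp1 was therefore the highest for class II only in C-ON, the library without Gh UMIs in these cells.
In the 29 cells of C-ON, Iigp1 was at 2110 CPM against 106 in the 3578 cells with no core gene and no leukocyte marker, Gbp2 at 1300 against 34.5 and H2-DMa at 223 against 5.78. In the 25 cells of FMC_new, Iigp1 was at 823 against 378 in 557 cells, Gbp2 at 330 against 37.9 and H2-DMa at 43.6 against 9.35. Gbp2, Iigp1 and H2-DMa were higher with class II in both libraries, on few molecules for H2-DMa in FMC_new. There it rested on 7 UMIs in 4 of the 25 cells, where the limit of 3 counts is 18.7 CPM. Gbp2 was found in fewer of the 25 cells than Iigp1, which was in 44.0%. The oligodendrocyte genes Mog and Mag were found in 72.0% and 68.0% of the 25 cells, against 89.8% and 92.8% of the 557. In C-ON both were found in all 29 cells. Of the 29 and 25 cells, 1 and 1 were among the highest doublet scores, beside 7.83% and 6.86% of the class. In oligodendrocyte-like cells with class II and a leukocyte marker, these shares were 34.8% and 29.2%.

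**Figure D5:**
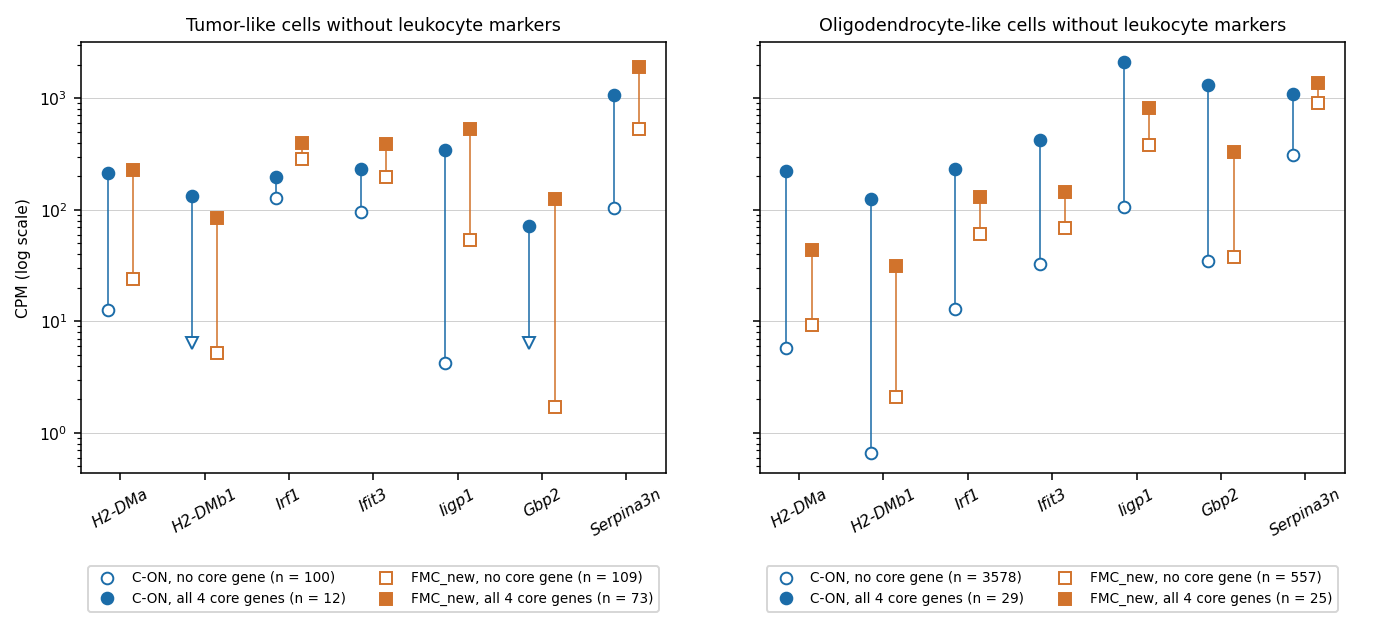
Levels of 7 genes, in CPM on log axes, in tumor-like (left) and oligodendrocyte-like cells (right) without leukocyte markers, for cells with all 4 core genes (filled) and with none (open), in C-ON (circles) and FMC_new (squares). Open triangles mark the limit of 3 counts where no UMI was found. H2-DMa, Iigp1 and Gbp2 are higher in the filled points in each panel and library, with Iigp1 of oligodendrocyte-like cells in FMC_new at 823 against 378.

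Between the libraries, the summed levels of the members differed by less than 2-fold in dendritic cell-like, microglia-like and B cell-like cells, and most were higher in FMC_new in oligodendrocyte-like, T cell-like, tumor-like and stromal-like cells. In microglia-like cells the share of cells with little class II differed between the libraries, as given above. A difference of at least 2-fold in CPM was counted, with 1 library on each side and no replicate check. In dendritic cell-like cells 0 of 9 members were higher in FMC_new by this measure, against 2.77% of all genes tested in the class. It was also 0 of 9 in microglia-like cells (all genes 4.07%) and 0 of 9 in B cell-like cells (all genes 7.90%), and 1 of 9 in macrophage-like cells (all genes 2.55%), which was H2-Oa at 3.75-fold. In oligodendrocyte-like cells 7 of the 8 members with enough UMIs were higher (all genes 7.23%), in T cell-like cells 6 of 7 (all genes 3.45%), in tumor-like cells 5 of 6 (all genes 4.30%), in stromal-like cells 5 of 6 (all genes 7.26%) and in plasma cell-like cells 1 of 8 (all genes 3.04%). Of the members tested, 0 were 2-fold lower in FMC_new in these 9 classes. Of all genes, this held for 3.41% in dendritic cell-like, 6.80% in macrophage-like, 4.48% in microglia-like, 2.55% in B cell-like, 7.69% in plasma cell-like, 6.53% in T cell-like, 1.5% in oligodendrocyte-like, 3.0% in tumor-like and 3.42% in stromal-like cells.
The median log2 difference of the members was 2.27 in oligodendrocyte-like, 1.32 in tumor-like and 1.29 in T cell-like cells, against 0.10 in dendritic cell-like and 0.14 in microglia-like cells. Over all genes tested, the lowest median was -0.17, of plasma cell-like cells, and the highest 0.11, of B cell-like cells. The excess in FMC_new thus included T cell-like cells. Gh UMIs were also found in that library and not in the glia of C-ON, and the part of free RNA in the excess was not tested. In macrophage-like cells the median difference was 0.59, beside the change in the share of border macrophage-like cells given above. H2-Aa was also higher in FMC_new within the cells with C1q genes, the border macrophage-like and the monocyte-like cells, as given above. The part of the subtype shares in the difference was not tested.

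Of 27 further genes listed for the pathway, 26 were found, and 12 of these were at least 2-fold higher in dendritic cell-like than in T cell-like cells in both libraries. The share of all genes that pass this cut was not counted, so the 12 are not read as a trait of the pathway. Of the genes for the proteins that bind the X and Y boxes, Rfxap was at 26.96 and 27.3 CPM in dendritic cell-like, 49.9 and 49.1 in tumor-like and 31.0 and 33.0 in T cell-like cells, and Rfxank at 10.0 and 8.63, 6.85 and 9.05 and 11.8 and 15.2. Nfya, a subunit of NF-Y, was at 52.7 and 81.7 CPM in microglia-like, 30.3 and 35.6 in dendritic cell-like, 15.01 and 18.4 in B cell-like and 17.4 and 21.2 in T cell-like cells. Among transcription factors of the list, Irf8 followed the presenting cells, with 503 and 399 CPM in dendritic cell-like cells and 60.9 and 64.6 in T cell-like cells.

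The proteases that cut Cd74 differed by cell type. Ctss (cathepsin S), which makes the last cuts in dendritic cells and B cells, was at 6508 and 6797 CPM in microglia-like cells, 2336 and 2928 in macrophage-like cells, 793 and 917 in dendritic cell-like cells and 259 and 449 in B cell-like cells. Lgmn, an endosomal endopeptidase, was at 2530 and 2375 in microglia-like cells and at 65.4 and 56.2 in dendritic cell-like cells. The order of microglia-like and dendritic cell-like cells was in this way the reverse of that for H2-Aa. Ifi30, a thiol reductase of the endosome, was at 1120 and 1651 CPM in dendritic cell-like cells, 694 and 716 in B cell-like cells and 21.1 and 41.3 in T cell-like cells.
Cd83, which slows the turnover of class II at the surface, was at 969 and 847 CPM in dendritic cell-like, 1142 and 1269 in microglia-like and 653 and 636 in B cell-like cells. The costimulator Cd86 was at 435 and 489 in dendritic cell-like, 421 and 416 in microglia-like and 491 and 629 in macrophage-like cells, but Cd80 at 91.2 and 94.3 in dendritic cell-like and 20.4 and 21.4 in microglia-like cells. Tumor-like cells held no UMI of Cd80 or Cd86 in C-ON and 1.99 and 11.2 CPM in FMC_new. H2-Eb2, a further β chain gene, was at 78.8 and 106 CPM in B cell-like and 40.0 and 44.6 in plasma cell-like cells, against 6.28 and 9.69 in dendritic cell-like cells.

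By a set rule, the 9 genes named here whose levels over the 65 profiles were most like the mean of the 4 core genes were Spi1 (r = 0.951), Ifi30 (0.937), Pld4 (0.934), H2-DMb2 (0.932), Cd83 (0.926), Ctsh (0.917), Ly86 (0.915), Mpeg1 (0.911) and Irf5 (0.905), among 13953 genes. Spi1 is the transcription factor PU.1 of myeloid cells and B cells. Of the members measured the same way, H2-DMb1 (0.930) and H2-DMa (0.916) were more alike to the core than H2-Ob (0.867), Ciita (0.839) and H2-Oa (0.745).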

How the data were processed

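Single-cell RNA was measured in 2 libraries of pooled optic nerves. The authors deposited UMI counts per gene and barcode, made with Cell Ranger 7.2.0 per the file headers (the study's methods name 6.1.1) on the mm10-2020-A reference, and the series text names SCTransform. These counts were used as deposited. Cells with 500 to 5000 genes, 500 to 20000 UMIs and under 5% mitochondrial UMIs were kept and clustered in Seurat 5.3.0 (R 4.3.3) with log normalization to 10000, 2000 variable features less the class II genes, CCA integration, 30 components and resolution 0.8 (sub-clusters 0.4). A class was named from at least 3 markers found in 20% of cells and 2-fold higher than elsewhere, as X-like. Python 3.11.15 with numpy 2.4.6, scipy 1.17.1 and pandas 2.3.3 gave the values, scanpy 1.11.5 the doublet scores and matplotlib 3.10.9 the figures.

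Counts were summed per class and library as CPM with exact Poisson 95% intervals, and shares of cells have exact Clopper-Pearson intervals. Both cover counting error only, and the limit for 0 is 3 counts. Shares were compared after thinning each cell to 1000 UMIs, which left out 102 and 510 cells. The doublet caller marked 1 and 0 cells and had not worked, so none was removed, and an alternative removed the 766 and 2871 highest scores. Library differences were counted for genes of at least 50 summed UMIs. The genes named were the members, a pathway list and the 10 genes most like the core genes over clusters with at least 20 cells. Of these, 2 genes are not reported here. The members and lists were chosen with earlier results of these data known. The summing and interval steps were tested on simulated counts. The alternatives were resolution 1.6, SCTransform, no upper limits on cells, class II genes kept as variable features and the mean over cells. Thinning, another minimum of UMIs, removal of the called doublets and each library alone were also used.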

Additional observations from a re-analysis of the deposited data

How the results depend on the processing

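Log2 ratios of levels over both libraries were recomputed, with 80 values for 8 ratios beside those of single libraries. Of these, 57 moved by less than the standard deviation of the 2 single-library values, 23 by more, and 0 changed direction. This standard deviation is smaller than the difference between the libraries, so a listed move can lie within that difference. Some of the 57 could hardly move and say nothing on stability. Removing the called doublets took out 1 and 0 cells and left all 8 ratios as they were. Keeping mixed clusters in their class changed only the ratios of oligodendrocyte-like and tumor-like cells. Removing the highest doublet scores and keeping the clusters mixed with leukocytes in their class were chosen after seeing the data, as were the single-library values of the counts and of the H2-Aa CPM. For H2-Aa, dendritic cell-like over microglia-like cells stood at 1.31 and moved to 1.37 with SCTransform, 1.23 without upper limits, 1.27 with class II genes among the variable features, 1.42 as the mean of each cell's CPM and 1.40 when thinned to 1000 UMIs. Stromal-like over T cell-like cells stood at 2.03 and moved to 1.73, 2.24, 2.22, 2.15 and 2.11 in the same order, to 2.09 at resolution 1.6 and to 1.34 without the highest doublet scores. Oligodendrocyte-like over T cell-like cells stood at -1.78 and moved to -0.93 with SCTransform, -0.98 as the mean of each cell's CPM and -0.73 with mixed clusters kept. Tumor-like over T cell-like cells stood at 0.92 and moved to 1.23 with SCTransform and 2.54 with mixed clusters kept. H2-Ob in B cell-like over dendritic cell-like cells stood at 0.13 and moved to 0.39 as the mean of each cell's CPM and 0.50 when thinned. Ciita in dendritic cell-like over macrophage-like cells stood at 1.00 and moved to 1.08 with SCTransform, 0.88 without upper limits, 0.89 as the mean of each cell's CPM and 0.91 when thinned. The cause of these moves was not tested.

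With 1 library left out in turn, the H2-Aa ratios ranged from 1.31 to 1.35 (dendritic cell-like over microglia-like), 0.80 to 1.32 (macrophage-like over microglia-like), -1.96 to -1.58 (B cell-like over dendritic cell-like), -1.75 to -0.69 (oligodendrocyte-like over T cell-like), 0.42 to 0.83 (tumor-like over T cell-like) and 1.96 to 2.03 (stromal-like over T cell-like). Ciita ranged from 0.91 to 1.00, and H2-Ob from -0.083 in C-ON to 0.17 in FMC_new, which turned its direction. Classes above T cell-like cells in H2-Aa ranged from 6 to 10, H2-Aa from 15.6 to 99.8 CPM in oligodendrocyte-like and from 70.4 to 286 in tumor-like cells, and the pathway count from 12 to 13. Pooled ratios weigh the libraries by their cells, so they can lie outside the single-library values.

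No paired analysis was possible because there is 1 library on each side and no test was run. With 10 mice pooled in a suspension, the spread between mice is unknown, and fewer cells of a type cannot be told apart from loss in dissociation. The cell classes rest on rebuilt clusters. Ciita outside the presenting cells rests on 1 to 33 UMIs per class and library in the classes named, so its absence from single cells was not detectable at this depth.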

Other observations

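Astrocyte-like cells were too few in C-ON to be followed (19 cells). In FMC_new, 122 such cells held H2-Aa at 1487 CPM (1370 to 1610), found in 54 cells, and Cd74 at 3996 CPM. All 4 core genes were found in 27.9% (20.1 to 36.7) of them. Of these 34 cells, 88.2% also held a leukocyte marker (C1qa in 61.8%, Tyrobp in 58.8%), 4 held none, and the median depth of the 34 was 1237 UMIs. In the 57 astrocyte-like cells without a leukocyte marker, H2-Aa was at 209 CPM and Cd74 at 486. Ciita had 3 UMIs (7.81 CPM, 1.61 to 22.8).

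Group 2 innate lymphoid-like cells, with 27 and 69 cells, held H2-Oa at 44.4 CPM in C-ON (4 UMIs) and 44.2 in FMC_new (13 UMIs). On so few molecules, no order against macrophage-like cells (21.3 and 80.0) is read. They held no UMI of Ciita in either library. Plasma cell-like cells carried all 4 core genes in 52.3% (47.4 to 57.3) and 65.2% (62.2 to 68.1) of cells, with Ciita at 1 and 19 UMIs over the class.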
